A study of Rattus norvegicus with 6 samples.

Results

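Ugcg encodes ceramide glucosyltransferase, the enzyme that joins glucose to ceramide in the Golgi and so makes glucosylceramide. The gene was chosen by the measured difference of its isoforms between the strains in these libraries, so every strain value of Ugcg given here is a description and carries no test. Its members are the isoforms of the 1 locus named Ugcg, out of 24744 loci quantified. That locus, STRG.20719, held 3 of the 64488 quantified isoforms, and all 3 passed the count filter of 50 counts in at least 2 of the 3 libraries of a strain. The data are 6 RNA-Seq libraries of polyA RNA, each from the whole brain of a naïve male rat, 3 from the SHR/OlaIpcvPrin strain (SHR, the spontaneously hypertensive rat) and 3 from the BN-Lx/CubPrin strain (BNLx, a Brown Norway congenic that carries the polydactyly-luxate syndrome). Both strains are inbred, no rat was treated, and ages were not given in the sources used here. The comparison asked which isoforms of a gene differed in abundance between the brains of these strains.

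Glucosylceramide is the first product on the way to most glycosphingolipids. Lactosylceramide is built on it, and gangliosides, which are abundant in the membranes of neurons, are built on lactosylceramide. Ceramide can instead be turned into sphingomyelin, into galactosylceramide, which is a main lipid of myelin, or back into sphingosine. In mice, loss of Ugcg in neurons is known to remove gangliosides made from glucosylceramide and to harm the nervous system.

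The libraries held 21745968 to 41333079 expected counts in SHR and 11747048 to 32826625 in BNLx. In each strain 1 library stood apart over all tested loci. The median absolute log2 ratio of normalised counts was 0.319 and 0.298 between SHR 1 and the other SHR libraries, against 0.0979 between SHR 2 and SHR 3, and 0.304 and 0.319 between BNLx 3 and the other BNLx libraries, against 0.124 between BNLx 1 and BNLx 2. Of the brain markers, 3 of 5 for neurons, 1 of 3 for astrocytes, 2 of 3 for oligodendrocytes and 2 of 3 for microglia had a named locus, and none of these was at 0 in any library. Their summed levels overlapped between the strains except for astrocytes, where Slc1a3, the 1 marker with a locus, was at 383 to 427 TPM in SHR and 256 to 303 TPM in BNLx. Of the single markers, microglial Cx3cr1 did not overlap either, at 24.4 to 31.5 TPM in SHR and 18.6 to 21.2 TPM in BNLx. Aif1, the other microglial marker with a locus, overlapped, at 32.0 to 52.9 TPM in SHR and 33.1 to 44.6 TPM in BNLx. How many of all loci separate the strains in this way was not counted. TPM is the abundance that RSEM divides by transcript length and scales within a library. The part of cell composition in the values below was not tested. No locus carried the name of an endothelial, liver, heart or muscle marker, so those were not checked.

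The deposited annotation placed Ugcg on chromosome 5 of rn6, on the plus strand. STRG.20719.2 spanned chr5:76386838-76419560 in 9 exons and 3746 bases and matched the Ensembl transcript of the gene. STRG.20719.1 was assembled from the reads without a reference transcript. It had the same first and last base, the same 8 introns and 1 more, so that it had 10 exons and 3706 bases. The added intron was a gap of 40 bases, chr5:76418784-76418823, inside exon 9 of STRG.20719.2, which is the last exon and carries the 3′ untranslated region. The gap lay 737 bases before the 3′ end of the transcript. The other introns of Ugcg were 652 to 16788 bases long. Of the 180618 distinct introns in the annotation, 338 (0.187%) were no longer than 40 bases. STRG.20719.2.1, added by the 3′ end predictor aptardi, shared the first 8 exons and stopped within exon 9, at position 76417742, 1818 bases before the long end. It ended 1042 bases before the gap, so that it contained neither form of it.

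**Figure D1:**
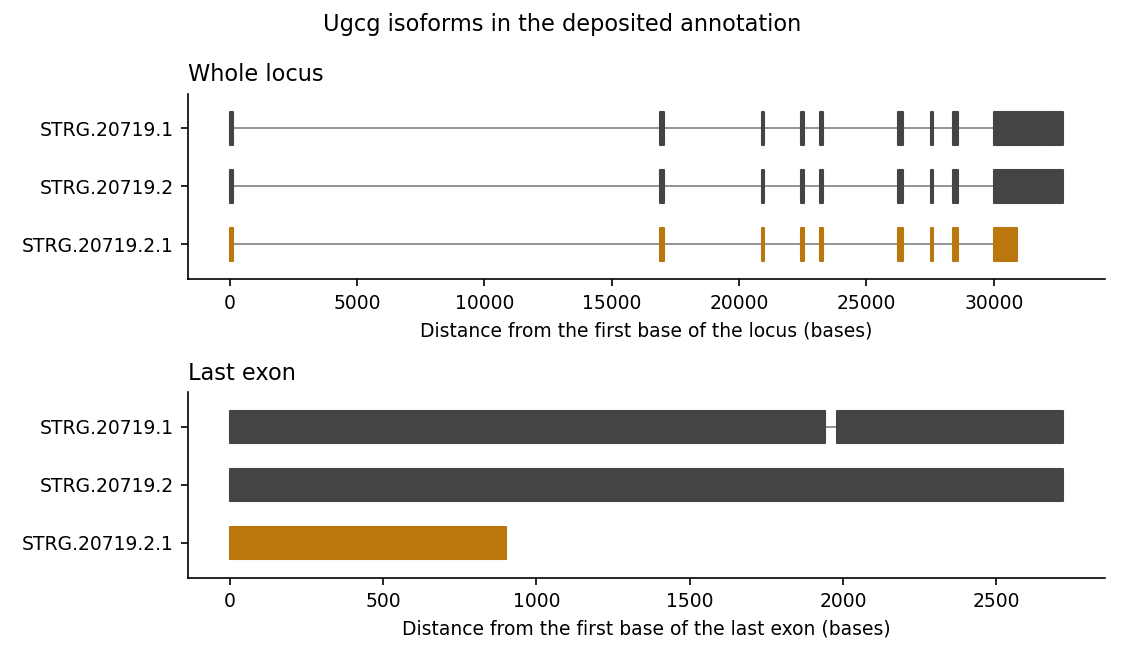
Exons (blocks) and introns (lines) of the 3 Ugcg isoforms, drawn to scale. The upper panel shows distance in bases from the first base of the locus, the lower panel distance in bases from the first base of the last exon. STRG.20719.1 and STRG.20719.2 differ by the 40-base gap alone, and STRG.20719.2.1 (orange) ends 1818 bases before the others.

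The main Ugcg isoform was STRG.20719.1 in every SHR library and STRG.20719.2 in every BNLx library. STRG.20719.1, the isoform with the gap, had 90.05, 92.74 and 97.66 CPM (counts scaled for library size by TMM) in SHR 1 to 3, against 3.91, 2.59 and 4.21 CPM in BNLx 1 to 3. Its mean was 93.5 ± 3.86 CPM in SHR and 3.57 ± 0.862 CPM in BNLx (SD, n = 3 each), a log2 difference of 4.71 or 26.2-fold. STRG.20719.2, the isoform without the gap, had 2.14, 1.63 and 1.73 CPM in SHR 1 to 3, against 98.5, 110.1 and 108.4 CPM in BNLx 1 to 3. Its mean was 1.84 ± 0.27 CPM in SHR and 105.7 ± 6.24 CPM in BNLx (SD, n = 3 each), a log2 difference of -5.85, or 57.6-fold lower in SHR. The strains did not overlap for either isoform, and the libraries of 1 strain lay close together.

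**Figure D2:**
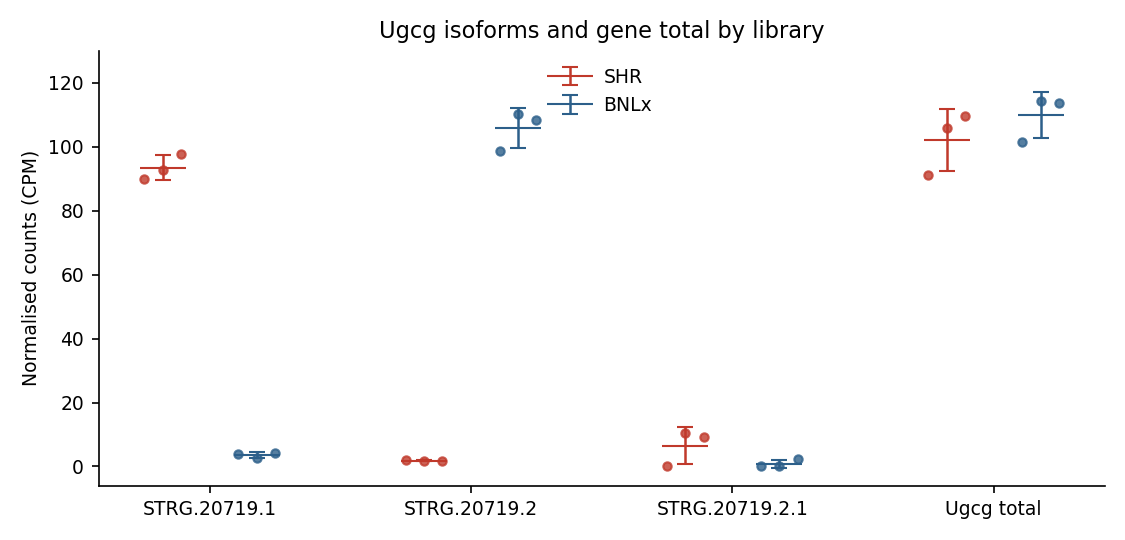
Normalised counts (CPM) of each Ugcg isoform and of the gene total, with 1 point per library, horizontal bars at the mean and whiskers of 1 SD (SHR left in red, BNLx right in blue, n = 3 each). STRG.20719.1 and STRG.20719.2 change places between the strains, whereas the gene totals of 91.1 to 109.6 CPM in SHR and 101.5 to 114.4 CPM in BNLx overlap.

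The gene total overlapped between the strains while its isoforms changed places. Ugcg had 91.1, 105.7 and 109.6 CPM in SHR 1 to 3, against 101.5, 114.4 and 113.7 CPM in BNLx 1 to 3, and the highest SHR values lay inside the BNLx range. The means were 102.1 ± 9.76 CPM in SHR and 109.9 ± 7.25 CPM in BNLx (SD, n = 3 each), a log2 difference of -0.11. In TPM the totals were 53.3, 74.4 and 73.7 in SHR and 55.6, 65.2 and 71.2 in BNLx, and the log2 difference was 0.07. The sign of this small difference therefore changed with the scale. In whole brain, fewer cells of a type and less RNA per cell cannot be told apart. By TPM, Ugcg ranked between 2652 and 3482 in SHR and between 2692 and 3249 in BNLx among 23637 loci above 0. That places it above 85.3% to 88.8% of those loci in each library.

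As shares of the counts of the gene, STRG.20719.1 made up 97.7%, 88.5% and 90.0% in SHR 1 to 3 and 3.82%, 2.3% and 3.66% in BNLx 1 to 3. STRG.20719.2 made up 2.32%, 1.56% and 1.6% in SHR 1 to 3 and 96.2%, 97.7% and 94.3% in BNLx 1 to 3. Neither isoform was estimated at 0 in any library. The minor one had 91.5, 34.9 and 38.4 expected counts of STRG.20719.2 in SHR, and 125.7, 30.3 and 54.4 expected counts of STRG.20719.1 in BNLx. Most of these counts are RSEM's split of reads that both isoforms share. The fragments at the gap behind them are far fewer, as estimated below, so low levels of the minor form are uncertain.

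Set against STRG.20719.2 alone, the isoform with the gap was steadier still in SHR. It took 97.68%, 98.27% and 98.26% of the pair in SHR 1 to 3, against 3.82%, 2.3% and 3.74% in BNLx 1 to 3. The pair together had 92.2, 94.4 and 99.4 CPM in SHR 1 to 3 and 102.5, 112.7 and 112.6 CPM in BNLx 1 to 3. For this sum every SHR library lay below every BNLx library, unlike for the gene total. The sum depends on how RSEM split shared reads with the short isoform, and how many loci separate in this way was not counted. Isoforms and gene totals were scaled by separate TMM factors, so the sum exceeds the gene total in SHR 1 and BNLx 1.

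Only fragments that reach the gap can separate these isoforms. The mean fragment, taken from the effective lengths that RSEM gave, was 152.5 to 167.9 bases in SHR and 156.3 to 164.3 bases in BNLx. From it, 5.33% to 5.78% of the possible fragment positions on STRG.20719.2 would overlap the gap. Applied to the counts of both long isoforms, that corresponds to an estimated 221, 117 and 117 fragments in SHR 1 to 3 and 179, 72 and 82 fragments in BNLx 1 to 3. STRG.20719.1 lacks the 40 bases, so fewer of its positions cross the junction and the SHR numbers are too high. The shares of the pair thus rest on about this many fragments or fewer, and not on all those counted for the gene. At these numbers the lowest bound of the 95% Wilson intervals of the gapped share was 93.98% in SHR and the highest was 10.21% in BNLx. The numerators were the estimated fragments times the share, rounded, at 216, 115 and 115 with the gap in SHR 1 to 3. In BNLx 1 to 3 they were 7, 2 and 3. Each interval describes 1 library and tests no strain difference, since Ugcg was chosen for that difference. The intervals cover the counting of fragments within a library and no variation between rats. Because the reads carry no molecular identifiers, copies of 1 fragment cannot be told from separate fragments. The numbers of fragments are themselves estimates. With fewer fragments the SHR intervals would be wider. The deposited files hold no genome sequence of either strain. RNA from which the 40 bases were spliced out and RNA copied from a genome without them cannot be told apart here.

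The short isoform STRG.20719.2.1 was estimated above 0 in some libraries of each strain and at 0 in the others. It was at 0, 10.4 and 9.1 CPM in SHR 1 to 3, against 0, 0 and 2.34 CPM in BNLx 1 to 3. It took 0%, 9.96% and 8.39% of the gene's counts in SHR 1 to 3 and 0%, 0% and 2.04% in BNLx 1 to 3. All of its bases also lie in both long isoforms, so RSEM assigned it shared reads by estimation. An estimate of 0 sets no limit on its share, and an estimate above 0 rests on the same split. Because the isoform is 1928 bases long, its share by TPM was larger, at 18.2% in SHR 2, 15.5% in SHR 3 and 4.05% in BNLx 3. SHR 1 and BNLx 3 were the libraries that stood apart in their strains. SHR 1 had no count of the short isoform, unlike SHR 2 and SHR 3, and BNLx 3 had some, unlike BNLx 1 and BNLx 2. The part of those libraries' other differences in this pattern was not tested. Of the 32348 isoforms past the filter, 257 were at 0 in SHR 1, BNLx 1 and BNLx 2 and above 0 in the other libraries, 148 of them added by aptardi. The opposite pattern was seen for 42 isoforms, 16 of them added by aptardi. The first pattern can pass the filter only through SHR 2 and SHR 3, the opposite only through BNLx 1 and BNLx 2. BNLx 2 held 11747048 expected counts, against 21745968 in SHR 2 and 22475206 in SHR 3. The counts of 257 and 42 are therefore not directly comparable. Of all 32348, aptardi had added 6678 (20.6%). All isoforms added by aptardi took 19.3% to 20.5% of the counts of a library in SHR and 19.6% to 19.9% in BNLx.

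An unnamed locus on the minus strand, STRG.20720 (chr5:76416283-76417119), overlapped the start of exon 9. It had 8.22, 8.98 and 8.6 expected counts in SHR 1 to 3 and 6.88, 5.63 and 6.77 in BNLx 1 to 3, too few to pass the filter. The library kit did not mark strand, so reads of this locus and of Ugcg cannot be told apart in the overlap, which holds neither the gap nor either 3′ end of Ugcg.

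Isoforms of other named loci had shares like those of Ugcg. Likeness was the root mean square difference of the share over the 6 libraries, in percentage points, among 14303 isoforms of 2839 loci. For STRG.20719.2, which was minor in SHR and major in BNLx, the nearest isoforms were STRG.25621.2 of Chga (1.35), STRG.21575.4 of Atpaf1 (1.36), STRG.20462.3 of Gabbr2 (2.86), STRG.15268.2 of Sdc4 (4.36) and STRG.35627.4 of Zfp161 (7.44). Chga encodes chromogranin A of secretory granules, Atpaf1 an assembly factor of the mitochondrial ATP synthase, Gabbr2 a subunit of the GABA-B receptor and Sdc4 a heparan sulfate proteoglycan of the cell surface. The Chga isoform made up 0.85%, 0.43% and 1.27% of its locus in SHR 1 to 3 and 94.9%, 100% and 95.0% in BNLx 1 to 3. For STRG.20719.1, the nearest were STRG.15268.1 of Sdc4 (2.88), STRG.21575.2 of Atpaf1 (3.78), STRG.22384.4 of Rsrp1 (3.91), STRG.35627.1 of Zfp161 (4.58) and STRG.25621.1 of Chga (5.92). The Sdc4 isoform made up 100%, 91.1% and 94.4% in SHR 1 to 3 and 4.07%, 0% and 0% in BNLx 1 to 3. These isoforms were picked for their likeness, so that their own strain difference is not a further result.

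As in Ugcg, the isoforms exchanged in Chga, Gabbr2, Sdc4 and Zfp161 differed by 1 short gap, of 21, 20, 28 and 20 bases, with the form lacking those bases major in SHR. In Atpaf1 the gap was 101 bases, and the Rsrp1 isoform belonged to no such pair. This was followed over all loci with limits set after these values were seen. In all, 1734 isoform pairs had the same ends, differed by 1 gap and reached 50 counts in every library. Of the 83 pairs with a gap of up to 50 bases, 16 pairs from 14 loci were exchanged towards SHR. Their gapped form was above 80% of the pair in every SHR library and below 20% in every BNLx library. These loci include Ugcg and also Chga, Gabbr2, Sdc4 and Zfp161, which prompted the count, so that the count is not independent of them. Only STRG.43165, an unnamed locus with a gap of 40 bases, had the reverse. Without SHR 1 and BNLx 3 these counts were 17 and 1. Gaps were defined on the coordinates of rn6. Bases of rn6 that a strain lacks can show as a gap in that strain, whereas bases that rn6 lacks cannot show as a gap in either strain. The counts in the 2 directions are therefore not directly comparable. The part of the reference genome in the direction of these exchanges was not tested. By strain means and not by library, another 34 of the 83 pairs had the gapped form under 20% in both strains. In 8 it was over 80% in both. Among longer gaps, such an exchange towards SHR was seen in 1 of 18 pairs of 51 to 70 bases, 0 of 106 pairs of 71 to 100 bases, 2 of 846 pairs of 101 to 1000 bases and 0 of 681 pairs of over 1000 bases.

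As in Ugcg, the gap lay in the last exon in 12 of the 16 pairs exchanged towards SHR. It did so in 52 of the 66 short-gap pairs that were not exchanged. In 23 of those 66 pairs, and in 0 of the 16, the form without the gap had no intron. There the gap could lie only in the last exon, so the counts of 12 and 52 are not directly comparable. The length of the gap was a multiple of 3 in 4 of the 16 exchanged pairs and in 28 of the 66 others. Besides Ugcg and the loci above, the named loci were Slc6a15, Chd5, Arg2, Pja2 and a locus shared by Gng7, Lmnb2 and Timm13. The totals of the other 14 loci that exchanged a short gap in either direction ranged from -0.88 to 1.08 in log2 SHR over BNLx with a median of -0.06, and edgeR's quasi-likelihood test called 0 of the 14 at an adjusted p of 0.05, beside 1.02% of all 14471 loci tested. Of the 14, 3 had an unadjusted p under 0.05, beside 10.21% of all loci, DESeq2 called 0, beside 3.76%, and edgeR without SHR 1 and BNLx 3 called 6, where it called 31.5% of all loci.

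**Figure D3:**
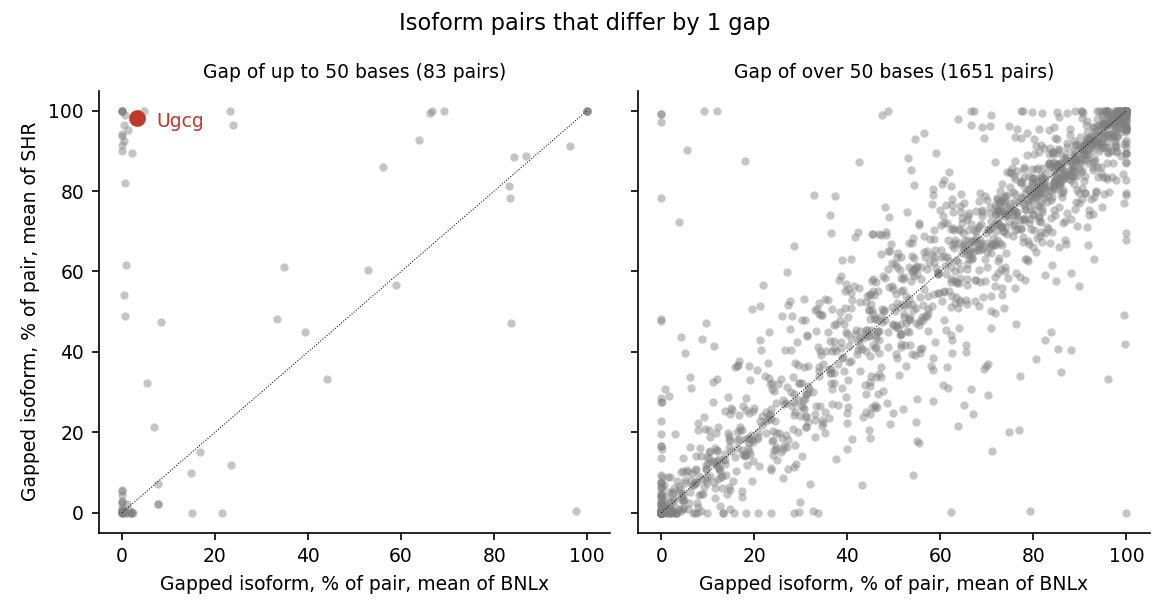
Share of the gapped isoform in pairs of isoforms that have the same ends and differ by 1 gap, as the mean of the SHR libraries (vertical axis, %) against the mean of the BNLx libraries (horizontal axis, %), with 1 point per pair and a dotted line of equal shares. Left, the 83 pairs with a gap of up to 50 bases, where Ugcg (red) lies among pairs that are gapped in SHR only. Right, the pairs with longer gaps, most of which lie near the line.

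The genes around Ugcg in sphingolipid metabolism gave no call at the gene level. Of 80 listed symbols in 7 role groups, 44 had a named locus and 42 passed the filter. The 44 lay on chromosomes 2 to 9, 20 and X only, so the other symbols may belong to loci without a name. edgeR's quasi-likelihood test called 0 of the 42 at a Benjamini-Hochberg adjusted p of 0.05, beside 1.02% of all 14471 loci, and 4 of them (Sptlc3, Sptssb, Ormdl1 and St6galnac5) had an unadjusted p under 0.05, beside 10.21% of all loci. Their median log2 difference was -0.04, against 0.00 over all loci. DESeq2 called 1 of them (Sptssb), beside 3.76% of all loci, and edgeR without SHR 1 and BNLx 3 called 6, beside 31.5% of all loci in that fit (Sptssb, Cers6, St6galnac5, Ormdl1 and St3gal5 among them). Those names were read off after the values were seen. Of 91 listed isoforms tested, 0 were called higher and 1 lower at an unadjusted p of 0.001, beside 1.0% of all 32348 isoforms. Of 25 listed loci tested for a change in isoform usage, 1 was called, beside 4.37% of 7742 loci.

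In the ceramide synthesis group, 0 of 10 genes were called. The called isoform was STRG.9681.2 of Sptssb, a small subunit of serine palmitoyltransferase, which catalyses the first step of sphingolipid synthesis. It fell to 6.29, 8.35 and 6.34 CPM in SHR 1 to 3, against 16.2, 17.9 and 22.3 CPM in BNLx 1 to 3, and these ranges did not overlap. The log2 difference was -1.43 (SE 0.229) and edgeR's adjusted p over all isoforms was 0.0940, above 0.05. No listed isoform was called when any 1 of the 6 libraries was left out, without both SHR 1 and BNLx 3, or with a replicate block. The Sptssb total averaged 10.9 ± 2.53 CPM in SHR and 26.2 ± 5.60 CPM in BNLx (SD, n = 3 each; log2 -1.26, SE 0.244, edgeR adjusted p = 0.103). The other gene of that pair of small subunits, Sptssa, whose locus also holds Eapp, averaged 82.6 ± 8.37 CPM in SHR and 86.6 ± 1.43 CPM in BNLx (log2 -0.07, edgeR adjusted p = 0.880). The ceramide synthase Cers5 averaged 59.8 ± 3.12 CPM in SHR and 63.3 ± 3.49 CPM in BNLx (log2 -0.08, edgeR adjusted p = 0.831).

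The locus called for isoform usage held Ormdl1, which restrains serine palmitoyltransferase, together with Osgepl1, so that its isoforms cannot be assigned to Ormdl1 alone. Its adjusted p in edgeR's usage test was 1.1e-06, but 0.331 without SHR 1 and 0.852 without SHR 3. STRG.34321.3.1 had 3.56, 1.89 and 3.78 CPM in SHR 1 to 3 and 0 CPM in each BNLx library. STRG.34321.5, the main isoform, took 43.2% ± 2.75 of the locus in SHR and 33.2% ± 3.87 in BNLx (SD, n = 3 each). Unlike Ugcg, the locus thus kept the same main isoform in both strains.

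Of the genes for other uses of ceramide, 0 of 3 were called. Cert1, which carries ceramide from the endoplasmic reticulum to the Golgi for sphingomyelin synthesis, averaged 106.6 ± 1.04 CPM in SHR and 116.2 ± 11.2 CPM in BNLx (log2 -0.12, edgeR adjusted p = 0.767). Ugt8, which adds galactose in place of glucose in myelin-forming cells, averaged 82.0 ± 26.7 CPM in SHR and 143.1 ± 48.5 CPM in BNLx (log2 -0.80, SE 0.34, edgeR adjusted p = 0.497). The summed oligodendrocyte markers, 1212 to 2689 TPM in SHR and 1839 to 3948 TPM in BNLx, also overlapped, and their part in the Ugt8 values was not tested.

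Downstream of Ugcg, 0 of 2 genes between glucosylceramide and lactosylceramide and 0 of 10 genes for gangliosides and globosides were called. B4galt5, a lactosylceramide synthase that acts on the product of Ugcg, averaged 68.8 ± 3.31 CPM in SHR and 76.2 ± 8.32 CPM in BNLx (log2 -0.15, edgeR adjusted p = 0.738). Plekha8, which transfers glucosylceramide between membranes, averaged 17.6 ± 1.10 CPM in SHR and 20.5 ± 3.01 CPM in BNLx (log2 -0.22, edgeR adjusted p = 0.706). St3gal5, which makes GM3, averaged 107.9 ± 12.9 CPM in SHR and 124.8 ± 23.0 CPM in BNLx (log2 -0.21, edgeR adjusted p = 0.756). The sialyltransferase St6galnac6 averaged 98.1 ± 3.95 CPM in SHR and 91.9 ± 11.3 CPM in BNLx (log2 0.09, edgeR adjusted p = 0.855). None of these differences passed the test, although such a p does not show that the strains were alike.

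Of the genes that break glycosphingolipids down 0 of 9 were called, of the ceramidases and sphingomyelinases 0 of 2, and of the enzymes and receptors of sphingosine phosphate 0 of 6. Gba2, which splits glucosylceramide, averaged 100.4 ± 3.22 CPM in SHR and 97.4 ± 7.56 CPM in BNLx (log2 0.04, edgeR adjusted p = 0.923). Acer2, a Golgi ceramidase, averaged 9.34 ± 3.00 CPM in SHR and 8.70 ± 2.65 CPM in BNLx, and Smpd2, a neutral sphingomyelinase, averaged 8.16 ± 2.20 CPM in SHR and 7.34 ± 0.452 CPM in BNLx. S1pr1, a receptor of sphingosine phosphate, averaged 99.9 ± 10.5 CPM in SHR and 85.0 ± 9.90 CPM in BNLx (log2 0.23, edgeR adjusted p = 0.639), and Sgpl1, the lyase of that lipid, averaged 74.1 ± 3.49 CPM in SHR and 77.6 ± 9.32 CPM in BNLx (log2 -0.07, edgeR adjusted p = 0.896). By mean TPM, which allows genes to be compared, Ugcg was 9th of 43 when set among these genes, with 65.6 TPM.

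**Figure D4:**
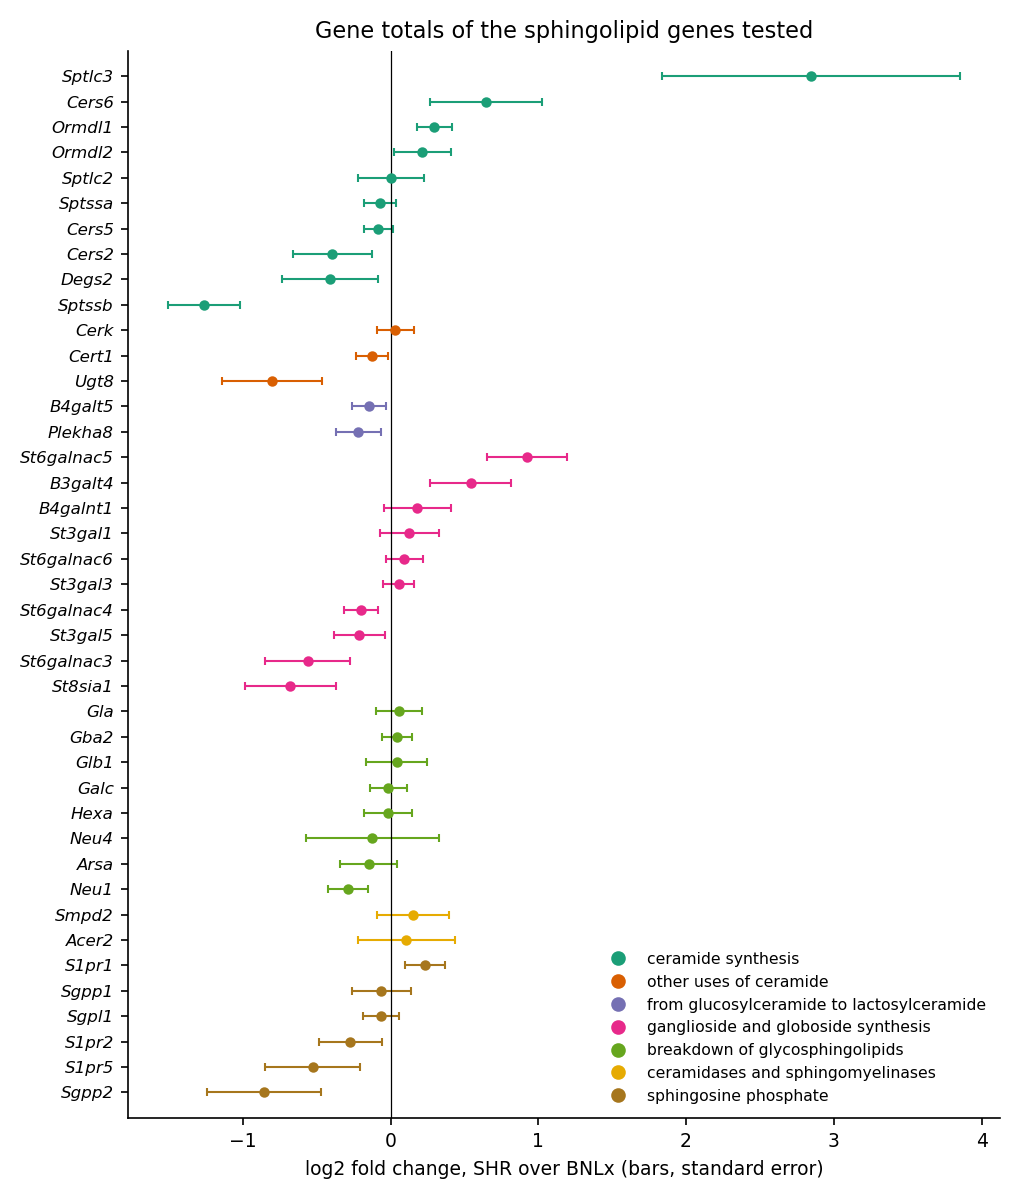
Log2 fold change of SHR over BNLx (points, whiskers of 1 SE) for the totals of the 42 sphingolipid genes tested, coloured by role group, with 1 of them not drawn. Values range from -1.26 (Sptssb) to 2.85 (Sptlc3), and 0 of the 42 passed an adjusted p of 0.05.

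Within 1 Mb of Ugcg lay 35 loci, 18 of them named, and 15 passed the filter. Of these 15, 1 was called higher in SHR and 0 lower, beside 1.02% of all loci, with a median log2 difference of 0.00. The called locus, STRG.20730 (chr5:76749193-76750515, plus strand), lay 329.6 kb beyond Ugcg, carried no name and overlapped Ptbp3 on the other strand. It had 237.4, 100.1 and 99.6 expected counts in SHR 1 to 3, against 26.9, 6.73 and 13.9 in BNLx 1 to 3. Scaled for depth, its mean was 4.92 ± 0.501 CPM in SHR and 0.827 ± 0.242 CPM in BNLx (SD, n = 3 each; log2 2.54, SE 0.287, edgeR adjusted p = 0.0179). The call was lost when SHR 2, SHR 3, BNLx 1 or BNLx 2 was left out, and 4 loci were called without SHR 1 and BNLx 3 (STRG.20730, STRG.20725, Zfp483 and Gng10), beside 31.5% of all loci in that fit. Strand was not marked, so its reads and those of Ptbp3 cannot be told apart. Ptbp3, the nearest named locus after Ugcg at 247.5 kb, encodes an RNA-binding protein and averaged 26.7 ± 1.56 CPM in SHR and 26.7 ± 0.705 CPM in BNLx (log2 0.00). Gng10, the nearest named locus before Ugcg at 197.8 kb, encodes a G protein gamma subunit and averaged 49.1 ± 11.0 CPM in SHR and 46.2 ± 16.3 CPM in BNLx (log2 0.08, edgeR adjusted p = 0.956). Of 6 neighbouring loci tested for isoform usage, edgeR called 0, beside 4.37% of all loci, with 2 at an unadjusted p under 0.05, and limma with voom weights also called 0. Without SHR 1 and BNLx 3, edgeR called 1 (Zfp483) of 5, beside 28.2% of all loci in that fit.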

How the data were processed

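PolyA libraries were made with an unstranded TruSeq kit from 1 ug RNA and sequenced as paired reads of 100 bases over 3 lanes, of which 1 held all 6 libraries and 2 held 3 each. Which libraries shared those 2 lanes was not given in the sources used here, and the part of the lane was not tested. The authors trimmed with cutadapt, aligned with HISAT2 to strain genomes made from rn6, merged the alignments, assembled transcripts with StringTie 1.3.5 and an Ensembl guide, used aptardi to add 3′ ends, and quantified with RSEM. The authors deposited expected counts for isoforms and loci, which are not normalized, and TPM values, which RSEM scales to a fixed sum in each library. The genome sequence behind the RSEM reference is not given in the sources used here. A gene name was taken only where the deposited annotation gave one, which was so for 8334 of the 24744 loci. A gene or marker without a named locus may thus be among the unnamed loci.

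Expected counts were rounded to whole numbers, filtered as stated in the text, scaled by TMM and tested (two-sided, strain alone) with edgeR 4.0.16 quasi-likelihood fits in R 4.3.3, for isoform usage with diffSpliceDGE. Adjusted p-values are Benjamini-Hochberg values over all features. The fits were tested on simulated data. Alternatives were DESeq2 1.42.0, RLE size factors, limma 3.58.1 on log2(TPM + 1) or with voom weights, no filter, a usage filter of 10 counts, a replicate block, leaving out libraries, a window of 500 kb and shares from TPM. The labels call the rats separate animals. Named genes were every Ugcg isoform, each listed gene called, the 2 of highest mean CPM in each role group, the called and nearest named neighbours, and the 5 isoforms most alike to each long Ugcg isoform. Values of 1 listed gene that this rule names are not reported here. Names outside this rule are the marker genes, those in the count of short gaps and those read from alternatives. Ugcg, the gene lists and the markers were chosen with earlier results of these data known.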

Additional observations from a re-analysis of the deposited data

How the results depend on the processing

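Ugcg was chosen for its strain difference in these libraries, so the Ugcg values here are a description. Leaving out 1 library gave a difference of 85.99 to 90.59 percentage points for the STRG.20719.1 share, -95.12 to -93.41 for STRG.20719.2 and 3.514 to 8.495 for STRG.20719.2.1, and a log2 difference of the gene total of -0.159 to -0.02913. Shares and levels from TPM gave 83.79 points for STRG.20719.1 (88.8 from counts), 9.879 for STRG.20719.2.1 (5.437 from counts) and a gene total of 0.0689. Of the 5 isoforms most alike to STRG.20719.1, 3 were kept with TPM shares.

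Listed genes called at the gene level numbered 0 throughout leaving out 1 library (0 to 0), 1 with DESeq2 and 6 without SHR 1 and BNLx 3, where 4393 of all loci were called. Listed isoforms called numbered 0 to 0 when 1 library was left out, 0 without both, 3 with DESeq2 and 2 with no filter. Listed loci called for usage numbered 0 to 2 when 1 library was left out, 2 without both and 2 with a filter of 10 counts. The adjusted p of the Ormdl1 locus was 0.07558 without both. Neighbouring loci called numbered 0 to 1 when 1 library was left out, 4 without both and 2 with DESeq2. The cause of these changes was not tested.

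Over all features, leaving out 1 library gave 20 to 152 loci (147 with all), 203 to 403 isoforms (324 with all) and 216 to 624 loci for usage (338 with all). Without both libraries there were 4393 loci, 1129 isoforms and 2013 loci for usage. DESeq2 called 543 loci and 1166 isoforms, limma on TPM 496 isoforms and voom weights 172 loci for usage. Estimated fragments at the gap, 72 in the shallowest library, limit the Ugcg shares.

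Whether replicate numbers pair the rats was not settled. Correlations of same-numbered deviations were -0.036, 0.318 and -0.198, and those of other-numbered deviations ranged from -0.328 to 0.247. The value of 0.318 was the highest of all, and so few values cannot show that pairing was absent. With a replicate block, 0 listed genes, 0 listed isoforms, 1 listed locus for usage and 0 neighbouring loci were called, and over all features 0 loci, 48 isoforms and 314 loci for usage.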
